A study of Mus musculus with 8 samples.

Results

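Potassium, sodium and calcium channels of the cell membrane were examined in the hypothalamus of mice lacking functional peroxisomes in neural cells. Channel genes were chosen by symbol, as all genes of the Kcn, Scn and Cacn families that were the single gene assigned to a probe set, and 119 of the 18194 genes with such a probe set were members. They comprised 81 genes for potassium channels and their auxiliary subunits, 11 for sodium channels, 24 for calcium channels and 3 noncoding RNA genes that share the nomenclature. At 10 weeks of age, 4 wild type mice and 4 mice of the Nestin-Pex5-/- genotype were sampled, and transcripts of each hypothalamus were measured on 1 Affymetrix whole-genome mouse array. In Nestin-Pex5-/- mice, Cre recombinase under the Nestin promoter removes the loxP-flanked part of Pex5, the import receptor for peroxisomal matrix proteins, from neural progenitors and thus from the neurons, astrocytes and oligodendrocytes derived from them. Microglia, which have another origin, are not targeted. Both genotypes were kept on a Swiss Webster background. Wild type arrays are numbered 1 to 4 and Nestin-Pex5-/- arrays 7 to 10, and values of single arrays are given in this order. All levels are log2 values of 1 probe set per gene, the brightest of that gene, and a level is compared between arrays rather than between genes, since probe sets differ in brightness.

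Potassium channels set the resting potential and end action potentials, sodium channels generate the rising phase, and calcium channels couple depolarization to transmitter release and gene expression. In myelinated axons these proteins occupy separate domains, with sodium and KCNQ channels at the node of Ranvier, Kv1 channels under the myelin beside it, and inward rectifiers on the astrocytes that take up potassium. Microglia carry a small set of potassium channels of their own, among them two-pore-domain channels, which pass background current, and the calcium-activated channel Kcnn4.

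The targeted gene did not separate the genotypes on this array. Mean Pex5 levels were 8.66 ± 0.038 in wild type and 8.67 ± 0.071 in Nestin-Pex5-/- arrays (± SD, n = 4 per genotype), and since the position of the probes relative to the deleted part is not known, this checks nothing. The hypothalamic markers were present, with a mean over 11 genes between 9.12 and 9.58 in wild type and between 9.02 and 9.63 in Nestin-Pex5-/- arrays, and 1 of them, Nkx2-1, was lower (0.804-fold). Microglial markers were higher for 6 of the 7 measured, with means over the list of 7.96 to 8.21 in wild type and 9.51 to 9.93 in Nestin-Pex5-/- arrays. Of the neuronal markers, 0 of 9 were called by limma (1 lower at an unadjusted p under 0.05, 0 by a per-gene test without moderated variances), with a median log2 fold change of -0.037. In a principal component analysis of all genes the first component (49.3% of the variance) separated the genotypes and the second (18.7%) set wild type replicate 4 apart from the other 7 arrays. RNA of bulk tissue was measured, so that fewer cells of a type and less RNA per cell cannot be told apart.

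Among the 119 channel genes, 1 was higher and 3 were lower in Nestin-Pex5-/- hypothalamus at an adjusted p under 0.05 (limma, Benjamini-Hochberg adjustment over all 18194 genes). Kcnk6, a two-pore-domain potassium channel, rose 1.94-fold. Cacna2d2, an auxiliary subunit that brings calcium channels to the membrane, Scn3b, an auxiliary subunit of sodium channels, and Cacng1, a calcium channel gamma subunit best known from skeletal muscle, fell to 0.720-, 0.813- and 0.831-fold. The share of channel genes called was 0.840% in the higher direction, against 3.98% of all genes, and 2.52% in the lower direction, against 0.791% of all genes. The remaining 115 channel genes were not called, and no channel gene had a log2 fold change of 1 or more in either direction. The per-gene test without moderated variances, adjusted in the same way, called 1 higher (2.68% of all genes) and 2 lower (0.396%), and scaling of the arrays to Actb gave 1 higher and 14 lower, since Actb itself was 0.13 higher in Nestin-Pex5-/- arrays on the log2 scale and this scaling moves every gene down by that amount. After it, 2.97% of all genes were higher and 5.97% lower, and the median log2 fold change of all genes was -0.16. The number of lower calls lay between 1 (without wild type replicate 2, Nestin-Pex5-/- replicate 8 or Nestin-Pex5-/- replicate 9) and 12 (without wild type replicate 4), and the number of higher calls reached 2 without wild type replicate 3 and 5 without wild type replicate 4. Over the same settings the share of all genes called lower ran from 0.253% to 1.82%. The share of all genes called higher was 3.31% without wild type replicate 3 and 5.94% without wild type replicate 4.

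Kcnk6 stood at 6.23, 6.21, 6.59 and 6.64 in wild type and at 7.20, 7.42, 7.34 and 7.54 in Nestin-Pex5-/- arrays. Each Nestin-Pex5-/- array lay above all wild type arrays, and the log2 difference of 0.96 (95% interval 0.69 to 1.22) exceeded the spread within either genotype (adjusted p = 0.00099, limma). Kcnk6 was called under all 19 alternative settings, with adjusted p-values from 8.1e-05 to 0.022. Its wild type values all lay below the median of all probe sets (6.79), where the share of background in the signal is unknown. The filter on dim probe sets kept Kcnk6 only through its Nestin-Pex5-/- values, so the call in that setting is no further support. An exact two-sided permutation test over the 70 assignments of 4 of the 8 arrays gave p = 0.029 for this gene and for each other gene whose arrays did not overlap, which is the smallest value that 4 against 4 arrays allow.

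Of the other 5 channels listed as microglial, 0 were called with all arrays by limma or by the unmoderated test. Kcnj2, the strong inward rectifier Kir2.1, stood at 4.92, 4.94, 5.25 and 5.19 in wild type and at 5.31, 5.38, 5.39 and 5.48 in Nestin-Pex5-/- arrays. The genotypes did not overlap, but the 1.24-fold difference did not pass the test (adjusted p = 0.081, limma) and the probe set was dim, below the median of all probe sets. It was called higher in 5 of 18 alternative settings, among them the fits without wild type replicate 3 (adjusted p = 0.047, limma) and without wild type replicate 4 (1.28-fold, adjusted p = 0.047, limma), and over the 18 settings the adjusted p ran from 0.0073 to 0.22. Kcnk13, the two-pore-domain channel THIK-1 that carries the resting potassium current of microglia, stood at 7.25, 7.18, 7.33 and 7.74 in wild type and at 7.44, 7.58, 7.47 and 7.57 in Nestin-Pex5-/- arrays. Wild type replicate 4 lay above all Nestin-Pex5-/- arrays and the other 3 wild type arrays below them, and the log2 difference had an interval of -0.11 to 0.39 (adjusted p = 0.58, limma). Without wild type replicate 4, Kcnk13 was 1.2-fold higher (adjusted p = 0.039, limma). Kcnn4, the calcium-activated channel KCa3.1, stood at 6.26, 6.35, 6.39 and 6.55 in wild type and at 6.33, 6.01, 6.46 and 6.52 in Nestin-Pex5-/- arrays. The genotypes overlapped, with Nestin-Pex5-/- replicate 8 below all wild type arrays, and the interval was -0.31 to 0.20 on the log2 scale. Kcna3, the voltage-gated channel Kv1.3, was at 0.973-fold (interval -0.21 to 0.13 on the log2 scale) and Kcnk12, a relative of Kcnk13, at 1.14-fold (interval -0.061 to 0.44), and neither was called. The probe sets of Kcnn4 and Kcnk12 were also dim, below the median of all probe sets. Over the 6 genes the median log2 fold change was 0.16, against -0.033 for all genes and 1.71 for the 7 microglial markers. How far the rise of the microglial markers accounts for the rise of Kcnk6 was not tested.

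**Figure D1:**
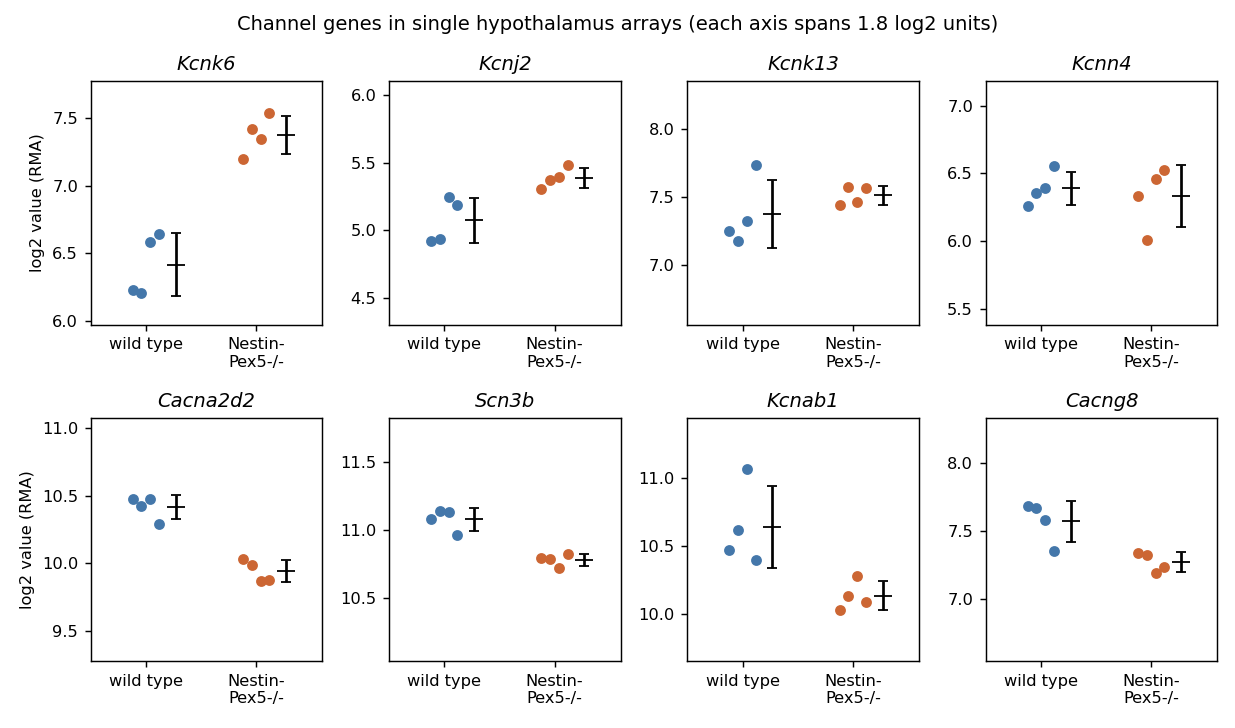
Log2 values of 8 channel genes in single arrays of wild type (blue) and Nestin-Pex5-/- (orange) hypothalamus, with the mean and SD of 4 arrays beside the points and an equal span on each vertical axis. Kcnk6 lies between 7.20 and 7.54 in Nestin-Pex5-/- and between 6.21 and 6.64 in wild type arrays, whereas the genotypes overlap for Kcnk13 and Kcnn4, and Cacna2d2 and Scn3b are lower in all 4 Nestin-Pex5-/- arrays.

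Cacna2d2 showed the clearest fall of all channel genes. It encodes the second alpha2delta subunit of high-voltage-activated calcium channels, and its loss in mice causes ataxia and seizures. Its values were 10.48, 10.42, 10.48 and 10.29 in wild type and 10.03, 9.99, 9.87 and 9.88 in Nestin-Pex5-/- arrays. All Nestin-Pex5-/- values lay below the lowest wild type value, and the log2 difference was -0.47 (interval -0.62 to -0.33, adjusted p = 0.0023, limma). It was called under all 19 alternative settings. A pair of dimmer probe sets for the gene pointed the same way without passing the test, at 0.914- and 0.847-fold (adjusted p = 0.40 and 0.20, limma over all probe sets). Of the other alpha2delta genes, Cacna2d3 did not overlap between genotypes but was not called (0.819-fold, adjusted p = 0.22, limma), with wild type replicate 3 at 10.46 and the other wild type arrays at 9.94 to 9.99. Cacna2d1, a gabapentin receptor, was at 0.931-fold (interval -0.31 to 0.10 on the log2 scale).

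The promoter of Cacna2d2 is shown as the regulatory start of the channel gene with the steadiest fall. Of the 4 called genes it was the one with an entry among the RefSeq promoters of GRCm38.p6, which held 91 of the 119 channel genes. The 300 bases at chr9:107399630-107399929 on the + strand run from 250 bases before to 50 bases after the start, with a GC box (GGGCGG, searched on both strands) in capitals.
Cacna2d2: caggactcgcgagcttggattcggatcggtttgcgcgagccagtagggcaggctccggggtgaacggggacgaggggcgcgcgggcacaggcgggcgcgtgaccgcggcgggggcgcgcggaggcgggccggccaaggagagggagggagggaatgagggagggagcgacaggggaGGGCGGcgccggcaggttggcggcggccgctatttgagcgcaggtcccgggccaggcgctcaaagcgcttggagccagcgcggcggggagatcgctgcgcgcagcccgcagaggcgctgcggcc
This stretch had a GC content of 75.7% and 43 CpG dinucleotides, against medians of 52.7% and 7 over all 32851 promoters of this length. It held 1 GC box, as 35.7% of all promoters hold at least 1, and neither TATAAA (in 13.6%) nor CACGTG (in 7.15%) on either strand. No measurement of these arrays was made at the promoter.

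Scn3b, which modulates the gating and surface level of neuronal sodium channels, stood at 11.08, 11.14, 11.13 and 10.96 in wild type and at 10.79, 10.79, 10.72 and 10.82 in Nestin-Pex5-/- arrays. The genotypes did not overlap, and the log2 difference was -0.30 (interval -0.43 to -0.16, adjusted p = 0.018, limma). A further probe set gave 0.827-fold and also passed (adjusted p = 0.032, limma over all probe sets). Scn3b was called in 13 of 19 alternative settings but lost the call without wild type replicate 1, 2 or 3 and without Nestin-Pex5-/- replicate 8 or 9, where the adjusted p reached 0.073. The other beta subunits measured, Scn2b (0.935-fold, interval -0.23 to 0.038 on the log2 scale) and Scn4b, were not called.

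Cacng1 stood at 4.56, 4.69, 4.78 and 4.73 in wild type and at 4.42, 4.38, 4.41 and 4.49 in Nestin-Pex5-/- arrays. The genotypes did not overlap and the log2 difference was -0.27 (interval -0.41 to -0.13, adjusted p = 0.040, limma), but these levels are below the median of all probe sets (6.79), where the share of background in the signal is unknown. The call was lost without wild type replicate 2 or 3 and without any 1 of the 4 Nestin-Pex5-/- arrays, with an adjusted p of up to 0.12, and under 10 of 18 alternative settings in all. Among the TARPs, gamma subunits that traffic AMPA-type glutamate receptors to the synapse, 0 of 6 were called by limma, 2 were lower at an unadjusted p under 0.05, and the unmoderated test also called 0. Cacng8 came nearest, at 7.68, 7.67, 7.58 and 7.36 in wild type and at 7.34, 7.32, 7.19 and 7.23 in Nestin-Pex5-/- arrays. Its genotypes were separated by a narrow gap, and the 0.811-fold difference did not pass (adjusted p = 0.075, limma). Without wild type replicate 4 it was 0.771-fold and passed (adjusted p = 0.0059, limma). Cacng4, at 0.897-fold, also did not overlap and was not called.

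Taken by class, the channel genes differed little between genotypes. The median log2 fold change of all 119 was -0.094, against -0.033 over all genes, and 82 of the 119 (68.9%) were below 0, against 61.7% of all genes. It was -0.084 for the potassium family (53 of 81 below 0), -0.14 for the sodium family (9 of 11) and -0.10 for the calcium family (18 of 24), and after renewed quantile normalization the medians were -0.074, -0.14 and -0.11. The arrays did not overlap between genotypes for 12 lower channel genes (10.1%, against 4.51% of all genes) and for 2 higher ones (1.68%, against 6.63%). At an unadjusted p under 0.05, 18 channel genes were lower (15.1%, against 8.01%) and 2 were higher (1.68%, against 8.85%). No test of the list against other genes was made, and the genes of a family are not independent replicates.

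**Figure D2:**
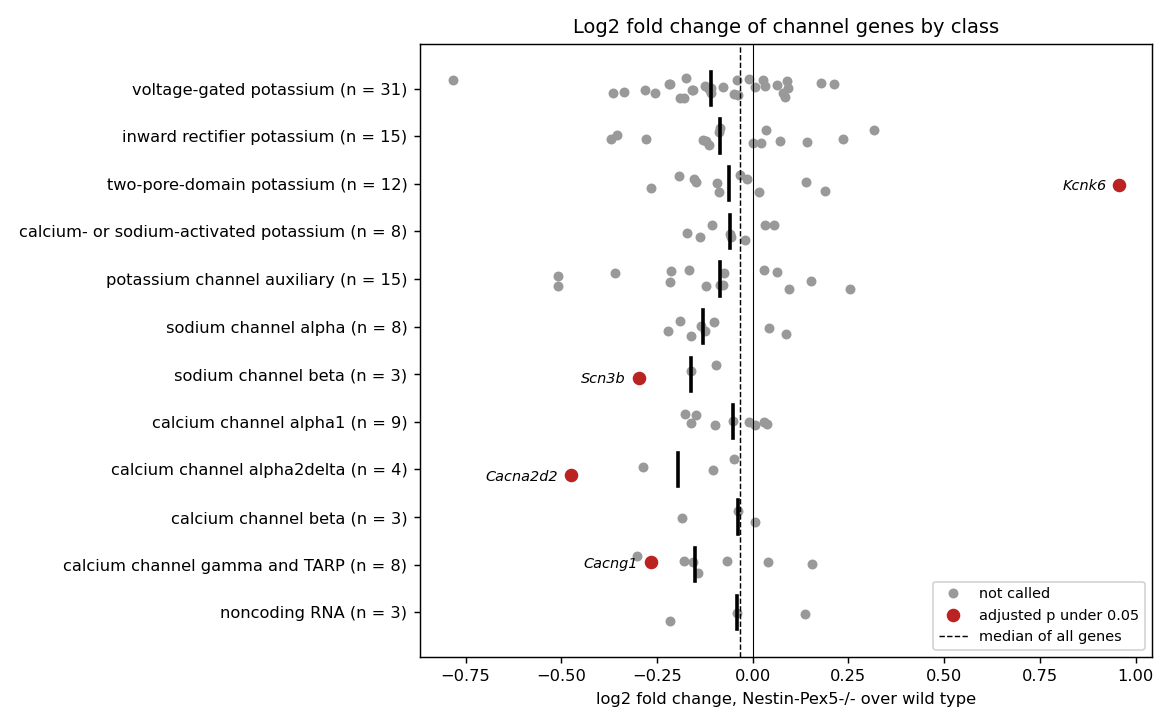
Log2 fold change (Nestin-Pex5-/- over wild type) of each of the 119 channel genes by class. Points are genes, vertical bars class medians, red points genes with an adjusted p under 0.05 and the dashed line the median of all genes (-0.033); Kcnk6 stands alone on the right, and class medians lie between -0.20 and -0.040.

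Within the potassium channels, 0 of the 31 voltage-gated subunits were called by limma or by the unmoderated test, with 5 lower and 0 higher at an unadjusted p under 0.05 and a median log2 fold change of -0.11. Their largest difference was that of Kcna5 (Kv1.5), named after its values were seen, at 7.99, 8.16, 8.70 and 7.91 in wild type and at 8.04, 7.31, 7.17 and 7.11 in Nestin-Pex5-/- arrays. Nestin-Pex5-/- replicate 7 lay among the wild type arrays and the other 3 below all of them (0.581-fold, adjusted p = 0.10, limma), and over the 19 alternatives the adjusted p ran from 0.012 to 0.26. Kcnc2, a Kv3 channel of fast-spiking neurons and the voltage-gated member with the brightest probe set, was at 1.06-fold. Of the 15 inward rectifiers and the 8 calcium- or sodium-activated channels, 0 were called by either test. At an unadjusted p under 0.05, 1 inward rectifier was higher (Kcnj2) and 1 lower (Kcnj4, named after its values were seen, 0.774-fold, adjusted p = 0.30, limma), and of the activated channels 0 differed in either direction. Kcnma1, the large-conductance BK channel, was at 0.959-fold by its brightest probe set, and its 5 probe sets ran from 0.907- to 1.46-fold. Its auxiliary subunit Kcnmb4, the neuronal beta4 subunit, stood at 9.34, 9.49, 9.29 and 9.58 in wild type and at 9.23, 9.24, 9.23 and 9.14 in Nestin-Pex5-/- arrays. These did not overlap, but the 0.862-fold difference was not called (adjusted p = 0.16, limma). Besides Kcnk6, 0 of the other 11 two-pore-domain channels were called, and Kcnk1 (TWIK-1) was at 0.941-fold.

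Pore-forming subunits of sodium and calcium channels showed no called difference. Of the 8 sodium channel alpha subunits and the 9 calcium channel alpha1 subunits, 0 were called by limma or the unmoderated test, and 0 reached an unadjusted p under 0.05. The median width of the 95% interval on either side of the estimate was 0.19 for the former and 0.23 for the latter on the log2 scale. Scn2a (Nav1.2) stood at 11.59, 11.53, 11.42 and 11.32 in wild type and at 11.32, 11.36, 11.21 and 11.33 in Nestin-Pex5-/- arrays, overlapping through wild type replicate 4 (0.894-fold, adjusted p = 0.30, limma). Cacna1b, the pore of N-type channels, was at 0.934-fold (interval -0.31 to 0.11 on the log2 scale). Cacnb4, a cytoplasmic beta subunit, was at 1.0-fold (interval -0.19 to 0.20), and 0 of 3 beta subunits were called.

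Channel genes were also grouped by the known place of their proteins on the axon. RNA levels of bulk tissue do not show where the proteins sit. At the juxtaparanode, the axonal stretch under the myelin beside the node, Kcna1 (Kv1.1) was at 0.972-fold and Kcna2 (Kv1.2) at 1.13-fold, with intervals of -0.32 to 0.24 and -0.0045 to 0.36 on the log2 scale. Their auxiliary subunit Kcnab2 was at 1.04-fold. The related subunit Kcnab1 stood apart from these, at 10.47, 10.62, 11.07 and 10.40 in wild type and at 10.03, 10.13, 10.28 and 10.09 in Nestin-Pex5-/- arrays. The genotypes did not overlap, and the 0.703-fold difference missed the threshold (adjusted p = 0.071, limma). A further probe set of Kcnab1 gave 0.696-fold and passed (adjusted p = 0.040, limma over all probe sets, of which 0.472% were lower), and so did the brightest without wild type replicate 3 (adjusted p = 0.0495, limma) or 4 (adjusted p = 0.030, limma). Among channels of the node and axon initial segment, 0 of 8 were called by either test. Scn1a (Nav1.1) was at 1.06-fold, Scn8a (Nav1.6) at 1.03-fold, Kcnq3 (Kv7.3) at 1.06-fold and Kcnk4 (TRAAK) at 1.01-fold. Kcnk2 (TREK-1), at 9.46, 9.42, 9.73 and 9.39 in wild type and at 9.21, 9.20, 9.34 and 9.18 in Nestin-Pex5-/- arrays, did not overlap and was the 1 member with an unadjusted p under 0.05 (0.832-fold, adjusted p = 0.12, limma).

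**Figure D3:**
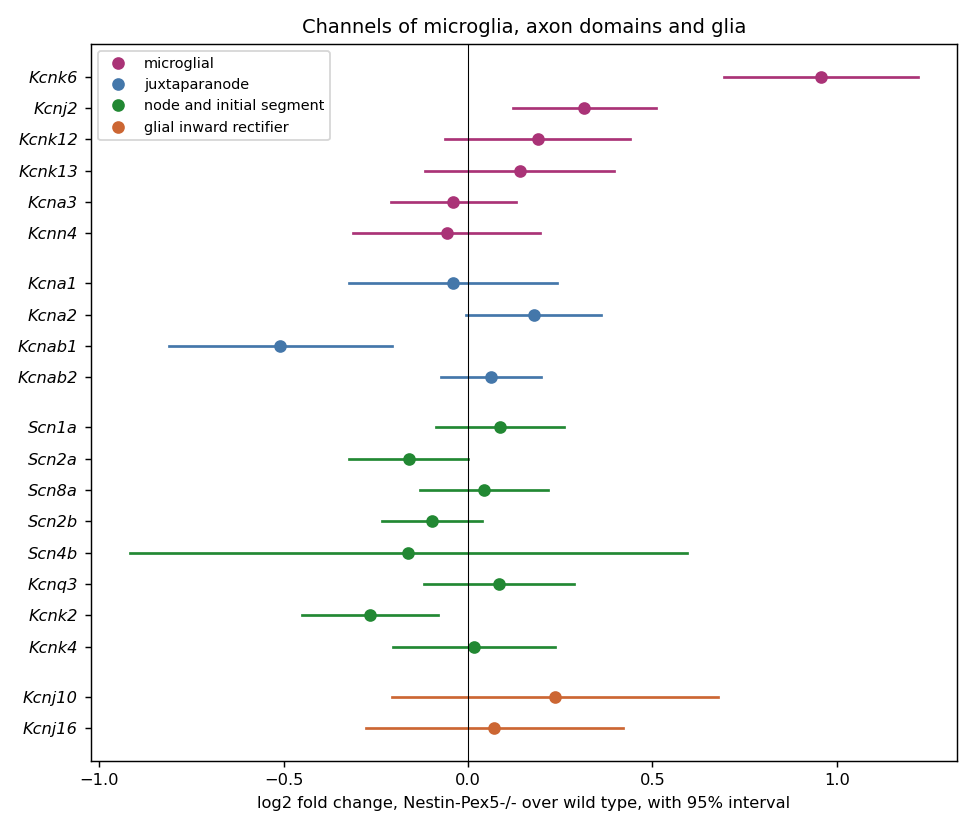
Log2 fold change with 95% interval (limma, 4 against 4 arrays) of 20 channel genes grouped by cell or axonal domain. The interval of Kcnk6 runs from 0.69 to 1.22 and that of Kcnab1 from -0.81 to -0.21, while the intervals of Scn4b and Kcnj10 are the widest and include 0.

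The glial inward rectifiers rested on 1 array. Kcnj10 (Kir4.1), the potassium-buffering channel of astrocytes and oligodendrocytes, stood at 11.12, 11.00, 11.05 and 11.93 in wild type and at 11.41, 11.47, 11.80 and 11.37 in Nestin-Pex5-/- arrays. Wild type replicate 4 lay above every other array and the remaining wild type arrays below all Nestin-Pex5-/- arrays. With all arrays the difference was 1.18-fold (adjusted p = 0.59, limma), and without wild type replicate 4 it was 1.37-fold (adjusted p = 0.029, limma). Its partner Kcnj16 (Kir5.1) showed the same layout in the wild type, with 8.32 in replicate 4 against 7.63 to 7.69, and was not called with or without that array. In the astrocyte markers, wild type replicate 4 had the highest mean of the wild type arrays (11.73 against 11.46 to 11.58), and the Nestin-Pex5-/- arrays had 12.06 to 12.22, with 2 of 8 genes called higher (Gfap and Aqp4). The list was not uniform in replicate 4. Among wild type arrays it was highest there for Gfap, Aqp4, S100b, Gja1 and Aldh1l1. It was lowest there for Slc1a2 (12.48 against 12.69 to 12.79) and Slc1a3 (10.98 against 11.17 to 11.22). The markers of mature oligodendrocytes were at 11.995 in wild type replicate 4 against 11.34 to 11.57 in the remaining wild type arrays and 11.80 to 12.22 in Nestin-Pex5-/- arrays. The part of these cell types in the Kcnj10 values was not tested.

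Proteins that hold channels in place were read from a list of 18 axonal partners, of which 17 were measured. Nfasc, the neurofascin that assembles nodes and paranodes, rose from 10.54, 10.55, 10.52 and 10.66 in wild type to 11.08, 11.16, 11.34 and 11.41 in Nestin-Pex5-/- arrays. The genotypes were far apart (1.61-fold, adjusted p = 0.00076, limma), and Nrcam, a cell adhesion molecule of the node, rose 1.17-fold (adjusted p = 0.043, limma). Oligodendrocytes also make neurofascin, and of their mature markers 0 of 7 were called, with 6 higher at an unadjusted p under 0.05 and a median log2 fold change of 0.45, while the precursor marker Gpr17 was called higher (1.92-fold). Their part in the rise of Nfasc was not tested. None of the list was lower by limma or the unmoderated test. At an unadjusted p under 0.05, 3 were higher and 1 was lower, and the median was -0.019. Cntnap2, the Caspr2 protein that anchors Kv1 channels at the juxtaparanode, did not overlap between genotypes (0.830-fold, adjusted p = 0.12, limma). Of 34 channels of other families measured, 2 were higher and 0 were lower by either test. The higher ones were the voltage-gated proton channel Hvcn1 of phagocytes (2.82-fold, adjusted p = 2.0e-05, limma) and the chloride channel protein Clic1 (2.22-fold, adjusted p = 0.00047, limma). Hvcn1 was dim in wild type arrays, at 5.57 to 6.05, below the median of all probe sets (6.79). At an unadjusted p under 0.05, 4 of the 34 were higher and 5 were lower. Of 18 regulators of these channels and 12 measured genes (15 listed) of the sodium pump and cation transport, 0 were called by either test. Of the sodium pump itself only the beta subunit genes Atp1b1, Atp1b2 and Atp1b3 were measured. At an unadjusted p under 0.05, 4 regulators were lower and 0 higher, and 3 transport genes were higher and 0 lower. For all of these lists, the shares of all genes were 3.98% called higher and 0.791% called lower by limma. At an unadjusted p under 0.05 they were 8.85% higher and 8.01% lower.

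Several channel genes moved with markers of neighbouring tissue in single wild type arrays, and these genes were named after their values were seen. Striatal markers (5 of 7 measured, 0 called by either test, 3 lower at an unadjusted p under 0.05) had means of 9.09, 9.31, 10.56 and 8.45 in wild type and of 8.39, 8.21, 8.73 and 8.17 in Nestin-Pex5-/- arrays. Kcnip2, a KChIP subunit of A-type channels, stood at 9.63, 9.77, 10.12 and 8.63 in wild type and at 8.75, 9.06, 9.30 and 9.0 in Nestin-Pex5-/- arrays. It was highest in wild type replicate 3, where the striatal markers peaked, and lowest in wild type replicate 4. It was not called (0.703-fold, adjusted p = 0.39, limma) unless wild type replicate 4 was left out (0.570-fold, adjusted p = 0.011, limma). Scn4b, a sodium channel beta subunit abundant in striatal neurons, was at 11.07 in wild type replicate 3 and at 9.33 to 9.63 in the other wild type arrays, against 9.48 to 10.01 in Nestin-Pex5-/- arrays. In wild type replicate 4, where the striatal markers were lowest among wild type arrays, Scn4b was not low (9.57). In all, 7 channel genes in wild type replicate 3 deviated by more than 0.5 log2 units from the average of the other 3 wild type arrays, 5 of them upwards (Kcna5, Kcnab1, Kcnip2, Kcnv1 and Scn4b).

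Wild type replicate 4 differed in choroid plexus genes and in others. Markers of choroid plexus and ependyma (6 of 6 measured, 0 called by either test, 1 lower at an unadjusted p under 0.05) had means of 9.49, 9.35, 9.12 and 7.76 in wild type and of 8.57 to 8.99 in Nestin-Pex5-/- arrays. The low mean of replicate 4 came from the choroid plexus genes Ttr, Folr1, Kl and Clic6, with Ttr at 10.51 against 14.47 to 14.59 in the remaining wild type arrays. The ependymal genes were not low there, with Foxj1 at 7.20 against 6.94 to 7.32 and Ccdc153 at 8.20 against 7.87 to 8.48. Between genotypes, Ccdc153 was the 1 gene of the list with an unadjusted p under 0.05 (0.668-fold, adjusted p = 0.0515, limma). Kcne2, a beta subunit of the apical choroid plexus membrane, stood at 6.95, 6.75, 6.47 and 4.45 in wild type and at 6.31, 5.82, 6.68 and 6.19 in Nestin-Pex5-/- arrays. Kcnj13 (Kir7.1), another channel of that epithelium, stood at 9.09, 8.67, 8.62 and 7.19 in wild type and at 7.99, 7.36, 8.80 and 8.30 in Nestin-Pex5-/- arrays. Both were lowest in wild type replicate 4 and neither was called. In this array 16 channel genes deviated by more than 0.5 log2 units from the average of the remaining wild type arrays, 11 of them downwards. Besides Kcne2 and Kcnj13, these were Kcnq1ot1, Kcnip2, Cacna1h, Cacna1e, Kcnv1, Kcnt1, Kcnh1, Kcnt2 and Cacna1d, named after their values were seen. Among the regulators of channels, Fgf14 was at 6.87 in this array, against 9.63 to 9.65 in the remaining wild type arrays. The part of neighbouring tissue in these differences was not tested.

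**Figure D4:**
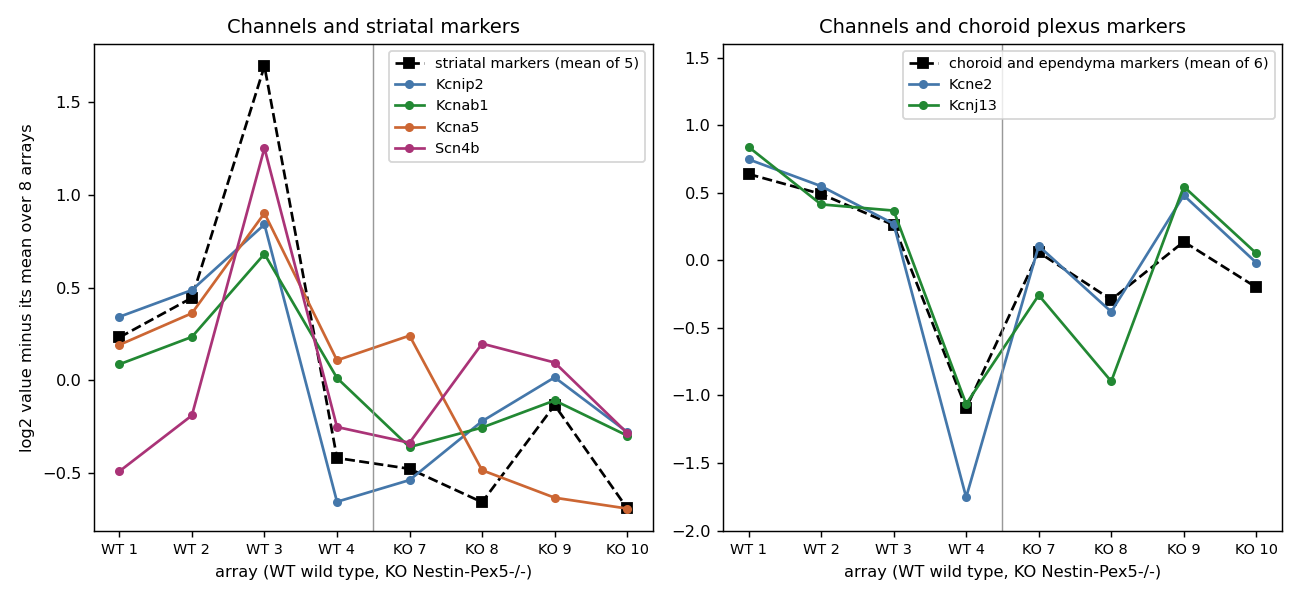
Log2 value minus its mean over the 8 arrays for channel genes and for the mean of marker genes, by array. Left, striatal markers and 4 channel genes, highest in wild type replicate 3; right, markers of choroid plexus and ependyma with Kcne2 and Kcnj13, lowest in wild type replicate 4.

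Leaving out wild type replicate 4 changed more calls than any other single array. Without it 5 channel genes were higher, against 5.94% of all genes, and 12 were lower, against 1.82% of all genes. All 4 calls of the full set remained, and 13 were added. The added higher genes were Kcne1l, Kcnj2, Kcnj10 and Kcnk13. The added lower genes were Cacna1e, Cacna1h, Cacnb1, Cacng8, Kcnab1, Kcnh1, Kcnip2, Kcnq5 and Kcnt1, of which several encode pore-forming subunits. Kcne1l and all of these lower genes except Cacng8 and Kcnab1 were named after their values were seen. Cacna1e, the pore of R-type calcium channels, shows how the array mattered, at 9.87, 10.00, 9.92 and 9.24 in wild type and at 9.55, 9.59, 9.60 and 9.66 in Nestin-Pex5-/- arrays. The Nestin-Pex5-/- arrays lay below 3 wild type arrays and above replicate 4, and the difference was 0.894-fold with it (adjusted p = 0.63, limma) and 0.793-fold without it (adjusted p = 0.0080, limma).

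**Figure D5:**
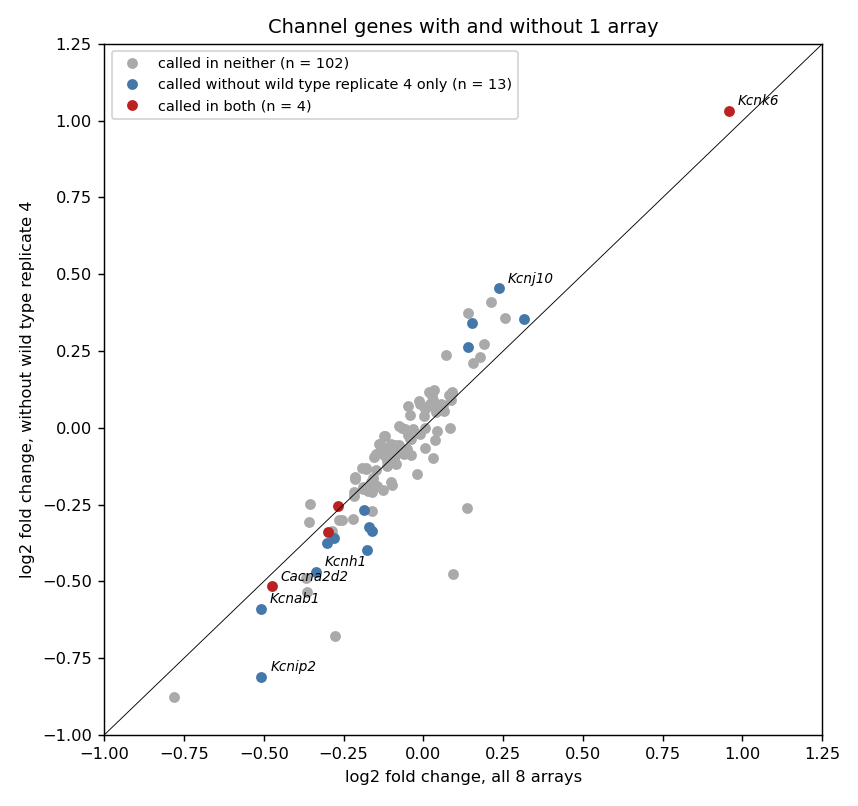
Log2 fold change of the 119 channel genes with all 8 arrays (horizontal axis) and without wild type replicate 4 (vertical axis), with the line of equality. Red points are the 4 genes called in both fits, blue points the 13 called only without that array and grey points the 102 called in neither.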

How the data were processed

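The deposited values are log2 expression values per probe set, which the authors made with RMA (background correction, quantile normalization and one summary value per probe set). The RMA version is not given in the sources used here, and the array analysis is described by reference to an earlier article. The 8 arrays held values from 2.91 to 15.03, with medians of 6.70 to 6.84. The platform annotation gave 34958 probe sets 1 gene, 932 several and 9211 none, and 34754 symbols were brought to GRCm38 by gene identifier. Only probe sets with 1 gene were used. The brightest of these by its average across arrays stood for the gene, and dim ones were kept. The 119 channel genes had 252 probe sets, none shared with another gene, and 41 of the 119 genes were read from a probe set below the median of all probe sets.

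The 4 Nestin-Pex5-/- arrays were tested against the 4 wild type arrays by a two-sided moderated test (lmFit and eBayes of limma 3.58.1, R 4.3.3), with p-values adjusted over all 18194 genes by the method of Benjamini and Hochberg, with a threshold of 0.05. Probe sets were fitted in a separate run over all 34958. Single genes were also compared by an exact permutation test. The number of arrays limits the precision, and no signal over background was used. The labels name genotype, tissue and age, and the study's methods give 4 mice per genotype. Tables were made in Python 3.11.15 with pandas 2.3.3 and plots with matplotlib 3.10.9.

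Genes were named when called, when among the 6 largest differences without overlap, when listed as microglial, juxtaparanodal, nodal or glial channels, or as the brightest member of a class; others are marked as named after their values were seen. The members and lists were chosen with earlier results of these data known. Alternatives were a filter on dim probe sets, other probe set choices, scaling to Actb, renewed quantile normalization, trend and robust settings, array weights, a test without moderated variances, a threshold of 0.01 and leaving out single arrays. Leaving out wild type replicates 3 and 4 together was added after seeing the data.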

Additional observations from a re-analysis of the deposited data

Results flagged for a closer look

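Within a genotype, single arrays stood far from the other 3 for 8 of the 68 gene and genotype groups of the named channel genes, with a gap to the nearest array that filled most of the range of the 4 arrays (above the 95% critical value of Dixon's test). Chance alone flags about 1 in 20 such groups, and the groups share arrays. In wild type replicate 3, Cacna2d3 reached 10.46, while its remaining wild type values were 9.94 to 9.99. In wild type replicate 4, Kcnj10 was at 11.93 against 11.00 to 11.12, and Kcnj16 was at 8.32 against 7.63 to 7.69. The other 5 groups lay in Nestin-Pex5-/- arrays and differed by less. In replicate 8, Scn2b was at 11.22 against 11.05 to 11.07, Kcnk1 at 10.70 against 10.55 to 10.57 and Kcnk4 at 6.95 against 6.82 to 6.83. In replicate 9, Kcnk2 was at 9.34 against 9.18 to 9.21. In replicate 10, Kcnmb4 was at 9.14 against 9.23 to 9.24. The reason was not tested for any of them.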

How the results depend on the processing

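Kcnk6 and Cacna2d2 were called in the same direction under all 19 alternative settings, Scn3b under 13 of 19 and Cacng1 under 8 of 18. The count of higher channel genes, 1 with all arrays, was 2 after quantile normalization of the arrays again and 2 with array weights, 4 with wild type replicates 3 and 4 both left out, and 1 to 5 when single arrays were left out. The count of lower channel genes, 3 with all arrays, was 14 after scaling to Actb, 11 with array weights, 1 at a threshold of 0.01, 9 with wild type replicates 3 and 4 both left out, and 1 to 12 when single arrays were left out. The share of all genes called lower was 0.791% with all arrays, 5.97% after scaling to Actb and 3.84% with array weights. It was 0.11% at a threshold of 0.01, 1.57% with both replicates left out and 0.253% to 1.82% when single arrays were left out. The share called higher was 3.98% with all arrays, 3.72% after renewed quantile normalization and 7.43% with array weights. It was 4.91% with both replicates left out and 2.98% to 5.94% when single arrays were left out. Array weights gave wild type replicate 4 the lowest weight (0.27). With the mean of a gene's probe sets, the partners called higher fell from 2 to 1 and the other channels called lower went from 0 to 1. Kcnq1ot1, a noncoding RNA, was at -0.37 on the log2 scale (adjusted p = 0.021, limma) with wild type replicates 3 and 4 both left out. It was at 0.14 with all arrays and at -0.26 with wild type replicate 4 alone left out, and was called in neither fit. Its level in wild type replicate 4 was 7.06, against an average of 8.64 in the remaining wild type arrays. The cause of this low value was not tested. Over 38 channel genes and 19 alternatives, 628 of 717 values kept direction and side of the threshold, 16 lost and 29 gained a call, and 43 changed sign without a call in either fit. The filter on dim probe sets left 78 of the 119 channel genes, Kcnk6 among them only through its Nestin-Pex5-/- values. No paired analysis was possible because the genotypes share no replicate numbers.

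Dim probe sets limit Cacng1, Kcnj2, Kcnk12 and Kcnn4, whose signal over background is unknown. The wild type values of Kcnk6 and Hvcn1 are likewise below the median of all probe sets. Genes with several probe sets were read from 1 of them, and Kcnma1 and Cacna2d2 show that their probe sets can differ in size or direction.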

Other observations

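Marker lists not described in full above were measured for the other cell types that the dissected tissue could hold. Of the oligodendrocyte precursor markers, 1 of 6 was higher by limma, Gpr17, a receptor of precursors on their way to maturity (1.92-fold, adjusted p = 0.022), and the unmoderated test called 0. The unmoderated test also called 0 of the 7 mature oligodendrocyte markers. Of the mural cell markers 0 of 6 were called by either test, with 2 lower at an unadjusted p under 0.05 and a median log2 fold change of -0.23. This list overlaps others, since Kcnj8 (0.782-fold) is also a channel gene, Abcc9 (0.733-fold) also a channel regulator and Cspg4 also a precursor marker. Of the meningeal markers 0 of 6 were called by either test, with 1 lower at an unadjusted p under 0.05; the list mean was 8.47 for Nestin-Pex5-/- replicate 7, 8.72 for replicate 8, 9.45 for replicate 9 and 9.42 for replicate 10, against 9.15 to 9.65 among wild type arrays. Of the thalamic (7 measured), endothelial (5), anterior pituitary (4) and T cell markers (4), 0 were called by either test and 0 reached an unadjusted p under 0.05.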
